A study of Homo sapiens with 9 samples.

Results

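The genes described here carry out DNA replication or mitosis: a list of 44 genes, 22 of each kind, of which 37 had a row with exactly 1 gene symbol on the array. The replication set kept 20 of its 22 genes, without RFC4 and POLA1, and the mitosis set 17 of 22, without CENPF, CENPE, TPX2, NUF2 and ASPM, which were not analysed here. They are 37 of 14812 genes measured, and each had 1 row. The cells were WM266-4, an established line from a melanoma metastasis, in a variant labelled GFP. They were transfected with the lipid reagent Lipofectamine 2000 and one of 3 small RNAs: 0.5 nM of a mimic of miR-199a-3p, 0.25 nM of that mimic, or 0.5 nM of a control microRNA, and total RNA was taken after 48 h. Each of the 3 groups has 3 arrays numbered 1 to 3, called biological triplicates in the labels, from 1 cell line. No group without transfection is included here, and the control received the higher of the 2 mimic doses. Values are log2 intensities of whole-transcript arrays, shifted so that all arrays have the same median, and differences are in log2 units.

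Replication genes act before and in S phase. The MCM helicase is loaded onto origins before S phase. In S phase it is activated by CDC45 and the GINS complex and is followed by polymerases, the PCNA clamp and the enzymes that supply nucleotides. Mitosis genes peak later, in G2 and M phase, when cyclin B and CDK1 drive entry into division and spindle motors and checkpoint kinases separate the chromosomes. Many replication genes are switched on by E2F transcription factors through E2F sites in their promoters. Many mitosis genes are repressed early and activated late in the cycle through the CHR element, often beside CCAAT boxes. A microRNA lowers transcripts that pair with its seed.

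The mature sequence of the transfected microRNA, from RefSeq, is shown because its seed (bases 2 to 8, in capitals) sets which transcripts it can pair with. The genes MIR199A1 and MIR199A2 give the same mature sequence. Seed matches in transcripts of the members were not analysed here.
hsa-miR-199a-3p: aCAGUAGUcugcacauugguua

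Promoter windows of RefSeq (GRCh38.p14, 250 bases before to 50 after each gene's start) were found for 32 of the 37 members. The E2F motif was searched as TTTCCCGC, TTTGGCGC, TTTCGCGC and TTTGCCGC, the CHR motif as TTTGAA and TTCGAA, and the CCAAT motif as CCAAT, all on both strands. An E2F motif lay in the windows of 12 of 17 replication genes (70.6%) and 1 of 15 mitosis genes (6.67%, CDK1), against 3.99% of all 27305 genes with a window. A CHR motif lay in 2 of 17 replication genes (11.8%), 11 of 15 mitosis genes (73.3%) and 19.5% of all genes. CCAAT was frequent in both, in 13 of 17 (76.5%) and 14 of 15 (93.3%), against 39.7% of all genes. The motifs were thus divided between the sets much as the list divides the genes, with exceptions in both sets. The 190 bases before the start are shown for 3 replication genes and 3 mitosis genes that display these letters, with the motif in capitals and the strand of the gene 5′ to 3′. They are MCM7 (chr7:100101398-100101587, minus strand), MCM6 (chr2:135876444-135876633, minus), TYMS (chr18:657463-657652, plus), CCNB2 (chr15:59104956-59105145, plus), PLK1 (chr16:23678699-23678888, plus) and HMMR (chr5:163460442-163460631, plus). In MCM6 each stretch of capitals holds a pair of overlapping E2F motifs, 1 on each strand, and in HMMR the CHR motif is repeated.
MCM7: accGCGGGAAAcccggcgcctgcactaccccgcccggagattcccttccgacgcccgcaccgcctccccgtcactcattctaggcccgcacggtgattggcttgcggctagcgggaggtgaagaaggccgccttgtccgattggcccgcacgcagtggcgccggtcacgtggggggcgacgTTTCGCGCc
MCM6: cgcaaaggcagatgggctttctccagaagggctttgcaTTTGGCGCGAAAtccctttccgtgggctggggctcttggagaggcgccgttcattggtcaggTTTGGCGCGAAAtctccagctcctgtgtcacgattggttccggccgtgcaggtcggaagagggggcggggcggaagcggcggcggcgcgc
TYMS: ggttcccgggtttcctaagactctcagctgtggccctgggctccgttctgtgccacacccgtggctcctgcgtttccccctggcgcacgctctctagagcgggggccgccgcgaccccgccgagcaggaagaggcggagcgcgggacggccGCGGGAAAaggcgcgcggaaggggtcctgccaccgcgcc
CCNB2: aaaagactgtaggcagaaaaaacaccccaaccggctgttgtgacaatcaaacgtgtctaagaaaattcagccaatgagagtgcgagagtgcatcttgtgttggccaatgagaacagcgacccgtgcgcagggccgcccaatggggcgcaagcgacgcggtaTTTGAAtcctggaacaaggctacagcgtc
PLK1: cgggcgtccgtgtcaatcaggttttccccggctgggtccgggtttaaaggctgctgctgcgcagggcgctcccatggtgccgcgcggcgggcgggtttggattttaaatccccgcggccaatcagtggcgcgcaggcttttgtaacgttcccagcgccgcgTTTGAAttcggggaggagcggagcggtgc
HMMR: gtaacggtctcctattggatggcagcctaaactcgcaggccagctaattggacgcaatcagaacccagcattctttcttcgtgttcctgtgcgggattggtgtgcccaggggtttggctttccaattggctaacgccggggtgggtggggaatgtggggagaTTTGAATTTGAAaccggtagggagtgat

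Arrays of 1 group shared many values. Exactly equal values stood on all 3 arrays of a group in 47.1% to 48.6% of all rows, and in 9 of 37 members in the control group, 9 of 37 at 0.5 nM and 5 of 28 at 0.25 nM, while 0 values were equal between arrays of different groups. In replicate 3 of the 0.25 nM group 2834 of 14812 genes (19.1%) had values cut short in the table and were left out, 9 members among them (MCM4, CDC6, GINS2, RRM2, TYMS, CCNA2, TOP2A, CDC20 and MKI67), so these members have 2 values there. Melanocyte markers were bright (mean level of MITF 9.82, PMEL 12.1, TYR 12.8 and SOX10 9.65, where the median gene lay at 6.24), and EPCAM, KRT5, KRT14 and DCN, markers of epithelial cells and fibroblasts, lay at 2.66 to 5.10, while CD68, a macrophage marker and the only other measured marker of another cell type, lay at 9.64. All 37 members had a mean level of at least 8, from 8.01 to 11.42. Members of the replication set spread more between the arrays of a group than those of the mitosis set: the median SD was 0.11, 0.083 and 0.094 (control, 0.5 nM and 0.25 nM) against 0.013, 0.024 and 0.039. Ties lower these SDs unequally. In control cells the tied members were CCNB1, CCNB2, BUB1B, AURKA, PLK1, CDC20 and TTK (mitosis) and MCM4 and CCNE2 (replication).

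The spread of the replication set had 1 direction. In all 3 groups the array numbered 1 was low in replication genes at the median, and in mitosis genes the median lay near 0. The median difference of replicate 1 from the mean of replicates 2 and 3 over the 20 replication genes was -0.19 in control cells, -0.14 at 0.5 nM and -0.15 at 0.25 nM, where it was 0.00, 0.01 and 0.02 over all genes. Over the 17 mitosis genes it was 0.00, 0.01 and 0.02, the same as over all genes. A gene that ties on all 3 arrays of a group takes these values from the shift alone. Replicates 2 and 3 had a median difference within 0.01 of 0 in every group, in both sets. Many members had equal deposited values on replicates 2 and 3 of a group, GINS1 in all 3 groups. The replicate numbers come from the labels, which do not say what arrays of the same number shared. In RNA from whole cultures, fewer cells in a phase and less RNA per cell cannot be told apart.

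**Figure D1:**
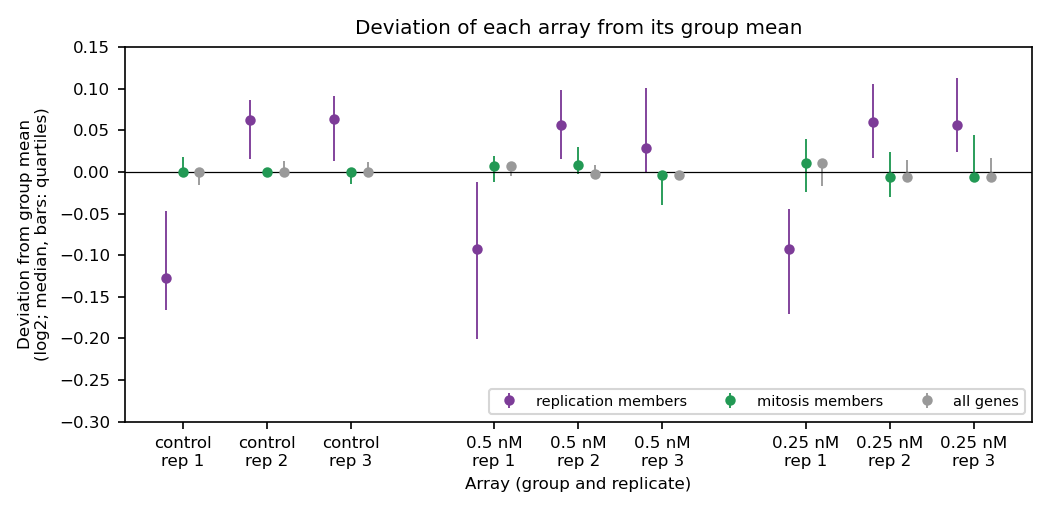
Median deviation of each of the 9 arrays from its group mean (log2 units, vertical axis), with quartiles as bars, for the replication members, the mitosis members and all genes. In each group the replication members of replicate 1 lie below 0, at medians of -0.13, -0.09 and -0.09, while the mitosis members stay within 0.02 of 0.

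Set against replicates 2 and 3 within groups, 9 of 20 replication genes were lower in replicate 1 and 0 were higher (limma with group and replicate number, adjusted p below 0.05). Over all genes 3.04% were called lower and 1.3% higher, and among the 3413 genes at a mean level of at least 8 the share called lower was 9.2%. The median difference of the replication set was -0.18, against 0.01 over all genes. Of the 17 mitosis genes 0 were called in either direction (limma, smallest adjusted p = 0.111), 4 had an unadjusted p under 0.05, and the median was 0.01. The difference between the sets was not itself tested, and replicate 1 was set apart because it had stood apart in earlier results of these data. The p-values of this test count arrays with equal values as separate arrays, and the ties make its error small. Replicate 1 was the lowest of its group in every group for 15 of 20 replication genes and 1 of 17 mitosis genes, KIF11, against 8.5% of all genes. It was the highest in every group for 0 and 3 of them, the latter BUB1, KIF20A and HMMR, against 11.8% of all genes. In genes that tie within a group these ranks follow the shift of the array alone, which is at most 0.02. A gene tied on all 3 control arrays can be neither lowest nor highest in every group. Such ties stood in 47.8% of all rows and in 9 of 37 members, so the shares of all genes are not matched for ties.

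**Figure D2:**
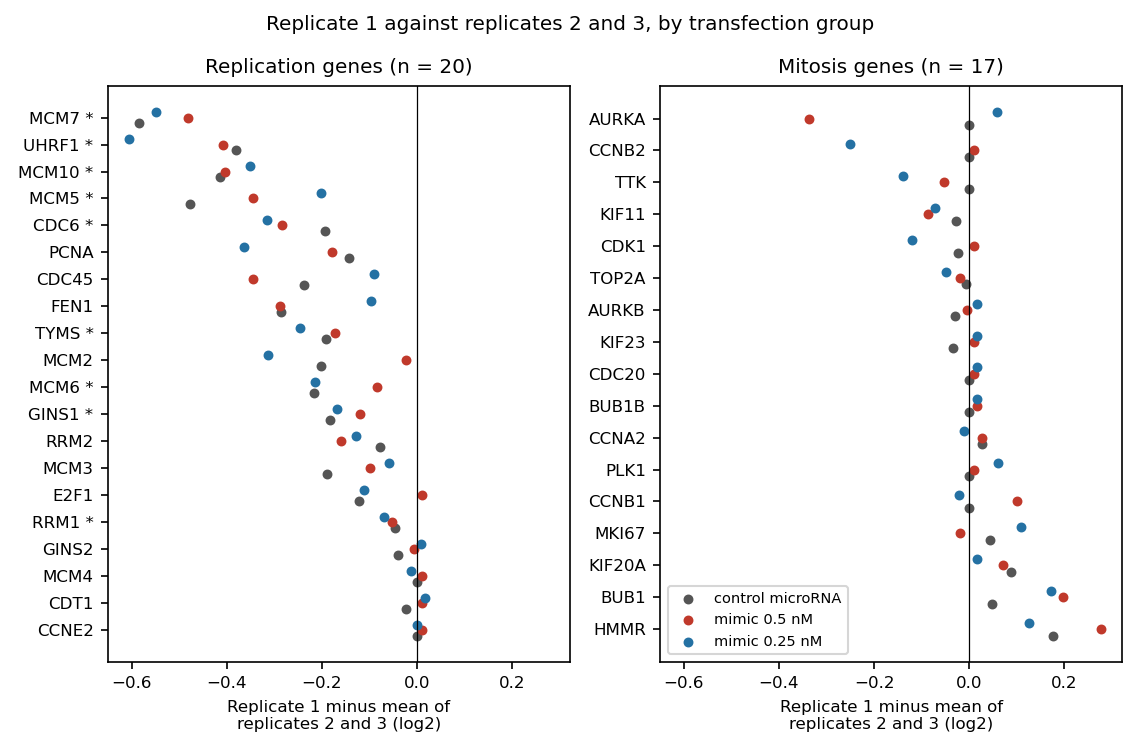
Difference of replicate 1 from the mean of replicates 2 and 3 (log2 units, horizontal axis) in each transfection group, 1 row per member, with asterisks for limma adjusted p below 0.05 in the fit over all 3 groups. From MCM7 down to TYMS all 3 points of every replication gene lie left of 0, while the mitosis genes stand on both sides of 0, from -0.34 for AURKA at 0.5 nM to 0.28 for HMMR at 0.5 nM.

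The largest difference was that of MCM7. MCM7, a subunit of the MCM ring that unwinds DNA, read 9.61, 10.21 and 10.18 on control replicates 1, 2 and 3, 10.01, 10.48 and 10.50 at 0.5 nM, and 9.76, 10.31 and 10.32 at 0.25 nM. Replicate 1 was the low array in each group, and the lowest value of replicates 2 and 3 anywhere, 10.18, lay above the highest of replicate 1, 10.01. The difference was -0.54 ± 0.022 (SE; limma adjusted p = 0.00143). MCM5 and MCM6, of the same ring, were also lower, at -0.34 (limma adjusted p = 0.0400) and -0.17 (limma adjusted p = 0.0477). MCM2 at -0.18 and MCM3 at -0.12 were lowest on replicate 1 in every group but did not pass (limma adjusted p = 0.205 and 0.135). MCM4, the remaining subunit of the list, lay at 0.00, with values of 9.97 on all 3 control arrays, so the ring was not uniform.

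MCM10, which helps to activate the loaded helicase, read 8.75, 9.11 and 9.22 in control, 8.88, 9.32 and 9.25 at 0.5 nM, and 8.73, 9.08 and 9.08 at 0.25 nM. Here too all replicate 1 values lay below all others, with a difference of -0.39 ± 0.032 (SE; limma adjusted p = 0.00752). UHRF1, which reads hemimethylated DNA behind the fork and recruits the maintenance methyltransferase, read 8.16, 8.55 and 8.54, then 8.19, 8.60 and 8.61, and then 8.12, 8.73 and 8.72 in the same order of groups. It differed by -0.46 ± 0.045 (SE; limma adjusted p = 0.0113), and its replicate 1 values were nearly the same in the 3 groups. GINS1, a subunit of the GINS complex, read 8.74, 8.92 and 8.92 in control, 8.82, 8.94 and 8.94 at 0.5 nM, and 8.98, 9.15 and 9.15 at 0.25 nM. Its difference was smaller, -0.16 ± 0.014 (SE; limma adjusted p = 0.00907), and its 0.25 nM arrays lay higher as a group. GINS2, of the same complex, lay at -0.01 (limma adjusted p = 0.560).

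Among licensing factors, CDC6, which loads the MCM ring with CDT1, was lower at -0.26 (limma adjusted p = 0.0246), and CDT1 lay at 0.00. Among enzymes of nucleotide supply, TYMS, which makes thymidylate, was lower at -0.19 (limma adjusted p = 0.00857), and RRM1, the large subunit of ribonucleotide reductase, by a small step of -0.06 (limma adjusted p = 0.0404). RRM2, the small subunit, lay at -0.12 and did not pass (limma adjusted p = 0.0907). PCNA, the sliding clamp, read 11.07, 11.27 and 11.15 in control, 11.07, 11.23 and 11.27 at 0.5 nM, and 10.98, 11.31 and 11.37 at 0.25 nM. Replicate 1 was its lowest array in each group, but at -0.23 ± 0.054 (SE) it did not pass (limma adjusted p = 0.120), and nor did CDC45 at -0.22 (limma adjusted p = 0.0897) or FEN1, the flap endonuclease of lagging-strand synthesis, at -0.22 (limma adjusted p = 0.131). The regulators E2F1, at -0.07 (limma adjusted p = 0.315), and CCNE2, a cyclin E, at 0.00 did not pass either.

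In the mitosis set the largest differences pointed up. HMMR, a spindle-associated hyaluronan receptor, read 9.21, 9.10 and 8.97 in control, 9.33, 9.21 and 8.90 at 0.5 nM, and 9.30, 9.19 and 9.17 at 0.25 nM. Replicate 1 was highest in each group, by 0.19 ± 0.055 (SE) over groups, and did not pass (limma adjusted p = 0.180). BUB1, a spindle checkpoint kinase, read 9.79, 9.74 and 9.74 in control, 10.02, 9.90 and 9.74 at 0.5 nM, and 9.97, 9.79 and 9.79 at 0.25 nM, a difference of 0.14 ± 0.041 (SE) that did not pass (limma adjusted p = 0.198). AURKA, the centrosomal Aurora kinase, read 8.71 on all 3 control arrays, 8.40, 8.74 and 8.73 at 0.5 nM, and 8.48, 8.38 and 8.46 at 0.25 nM. Its low replicate 1 value was seen at 0.5 nM alone, and the difference of -0.09 did not pass (limma adjusted p = 0.452).

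The landmark genes CDK1 and MKI67 did not pass by replicate. CDK1, the kinase that drives entry into mitosis, read 9.53, 9.56 and 9.56 in control, 9.63, 9.62 and 9.62 at 0.5 nM, and 9.53, 9.63 and 9.66 at 0.25 nM, a difference of -0.04 (limma adjusted p = 0.404). MKI67, the proliferation antigen Ki-67, read 10.80, 10.76 and 10.76 in control, 10.80, 10.95 and 10.69 at 0.5 nM, and 10.84 and 10.74 on replicates 1 and 2 at 0.25 nM, a difference of 0.05 (limma adjusted p = 0.538). For CDK1 all 0.5 nM arrays lay above the control arrays, and for MKI67 all groups overlapped. KIF11, the motor that pushes spindle poles apart, was the mitosis gene with the smallest p, at -0.06 (limma adjusted p = 0.111).

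The calls depend on how many arrays support them. With each of the 9 arrays left out in turn, 3 to 8 of the 20 replication genes were called lower. The shares of all genes in these fits are not given here. MCM7 and GINS1 were called in all 9 of these fits, MCM10 and UHRF1 in 8, TYMS in 6, CDC6 in 2, MCM5 and MCM6 in 1 and RRM1 in 0, while 16 of the 20 genes kept a negative difference in all 9. Without the 0.25 nM group 0 members were called, as were 0 of all genes, and without the shift of the arrays 5 were (MCM7, MCM10, GINS1, TYMS and UHRF1). Of all genes 2.07% were called lower without the shift.

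Beside the members, 18 other replication genes were measured: 3 were lower in replicate 1 and 0 higher, with a median of -0.12. They were CCNE1, a cyclin E of the G1/S transition (-0.43, limma adjusted p = 0.0111), SLBP, which processes histone transcripts (-0.30, limma adjusted p = 0.0337), and TIPIN, of the fork protection complex (-0.27, limma adjusted p = 0.00990). Of 55 other mitosis genes 3 were lower and 0 higher, with a median of -0.03, among them CKAP2L (-0.22, limma adjusted p = 0.0110) and SMC2, a condensin subunit (-0.20, limma adjusted p = 0.0358). Of 28 cell cycle regulators 6 were lower and 0 higher, with a median of -0.03. These included CDK6 (-0.32, limma adjusted p = 0.0288) and CDK4 (-0.22, limma adjusted p = 0.0271), the kinases of G1, as well as their partner cyclin CCND1 (-0.20, limma adjusted p = 0.0119). MYBL2, an activator of late cell cycle genes, lay at -0.20 and did not pass (limma adjusted p = 0.0740), nor did FOXM1, which acts with it, at 0.01 (limma adjusted p = 0.404). Of 13 melanocyte and neural crest markers 0 were called (limma; 6 had an unadjusted p under 0.05), and of 5 measured markers of other cell types 1 was, CD68, higher by 0.12 (limma adjusted p = 0.00411). What else replicate 1 differs in was not tested.

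Read against their promoters, 6 of the 8 replication genes with a window that were called lower in replicate 1 held an E2F motif (MCM6, MCM7, CDC6, GINS1, TYMS and UHRF1), as did 6 of the 9 that were not called (MCM2, MCM3, PCNA, GINS2, CDT1 and E2F1). Within the replication set the called and the uncalled genes thus held these letters at similar shares, which were not tested against each other. In MCM10 and RRM1, which were called, these letters were not in the window.

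**Figure D3:**
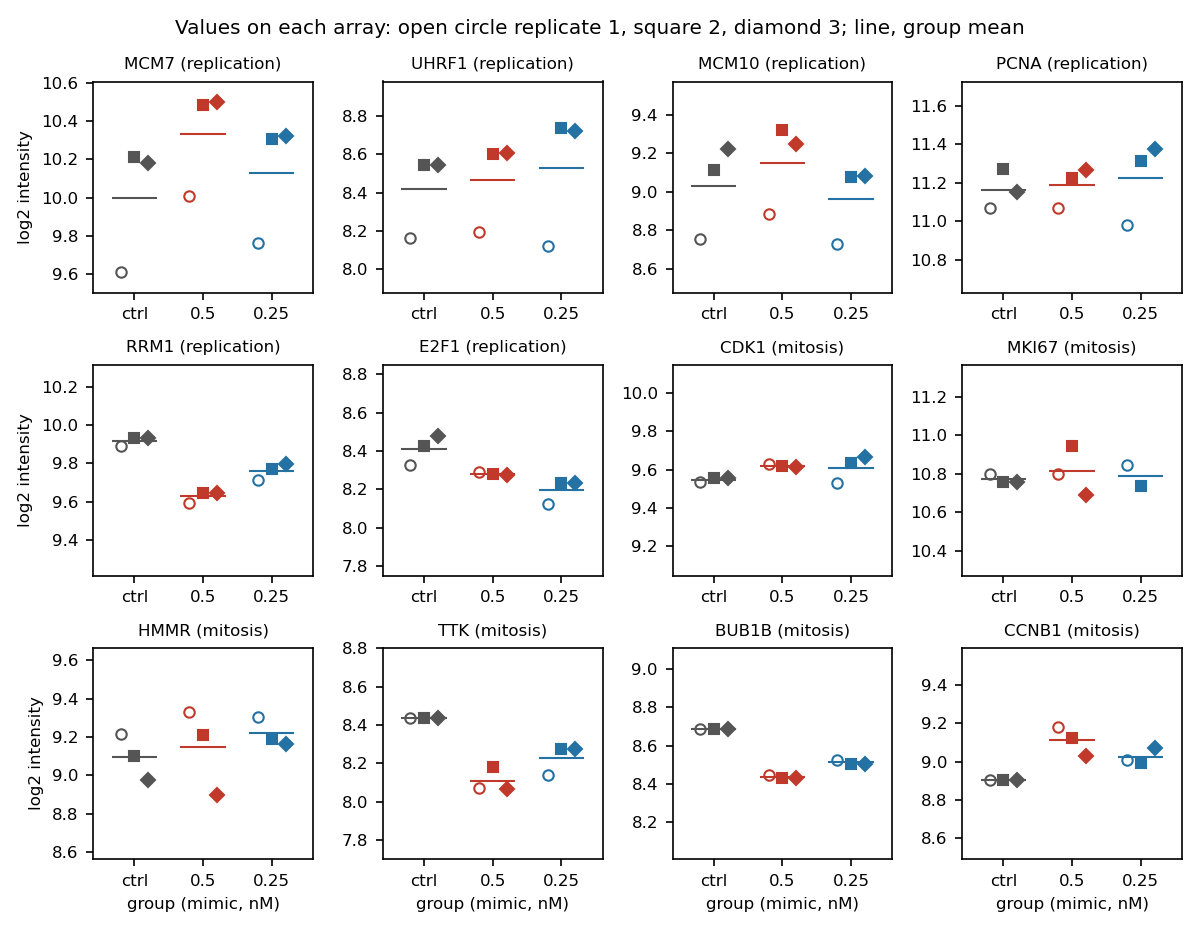
Log2 intensity (vertical axis, of the same length in each panel) of 6 replication and 6 mitosis genes on every array, by group (control, 0.5 nM and 0.25 nM mimic), with the group mean as a line. The open circles of replicate 1 lie far below the other arrays for MCM7, UHRF1 and MCM10, whereas for TTK and BUB1B all mimic arrays lie below the control arrays on these shifted values. Before the shift TTK read 8.357 on 0.25 nM replicates 2 and 3, above its control value of 8.352.

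The series asks which transcripts differ between mimic and control. At 0.5 nM, 2 replication genes were higher and 4 lower of 20, and 5 mitosis genes were higher and 5 lower of 17 (limma, 9 arrays, adjusted p below 0.05), where 33.2% of all genes were called higher and 30.1% lower. At 0.25 nM, 4 replication genes were higher and 2 lower, and 6 mitosis genes were higher and 4 lower, against 30.3% and 33.9% of all genes. The members were thus called at shares near or below those of all genes, and calls in both sets went in both directions. Of the 3413 genes at a mean level of at least 8, where all members lie, fewer were called. These were 693 higher and 914 lower at 0.5 nM, and 683 and 983 at 0.25 nM. Against these, mitosis genes were called higher at a larger share, which was not tested. Changes were above 0 in 15 and 11 of 20 replication genes, 11 and 13 of 17 mitosis genes, and 7639 and 6933 of 14812 genes. Median changes were 0.06 and 0.02 for replication genes and 0.05 and 0.06 for mitosis genes, against 0.01 and -0.02 over all genes. The p-values of this test rest on the spread within groups, which the ties make small, so most genes pass. Both doses share the same 3 control arrays. The shift of the arrays took 0.09 from every change at 0.5 nM and 0.16 from every change at 0.25 nM. Without it the calls were 4 higher and 1 lower (replication) and 9 and 5 (mitosis) at 0.5 nM, and 5 and 0 and 12 and 1 at 0.25 nM, so the direction in the mitosis set turns mostly upward. Over all genes 45.0% were then higher and 20.1% lower at 0.5 nM, and 50.7% and 17.1% at 0.25 nM.

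**Figure D4:**
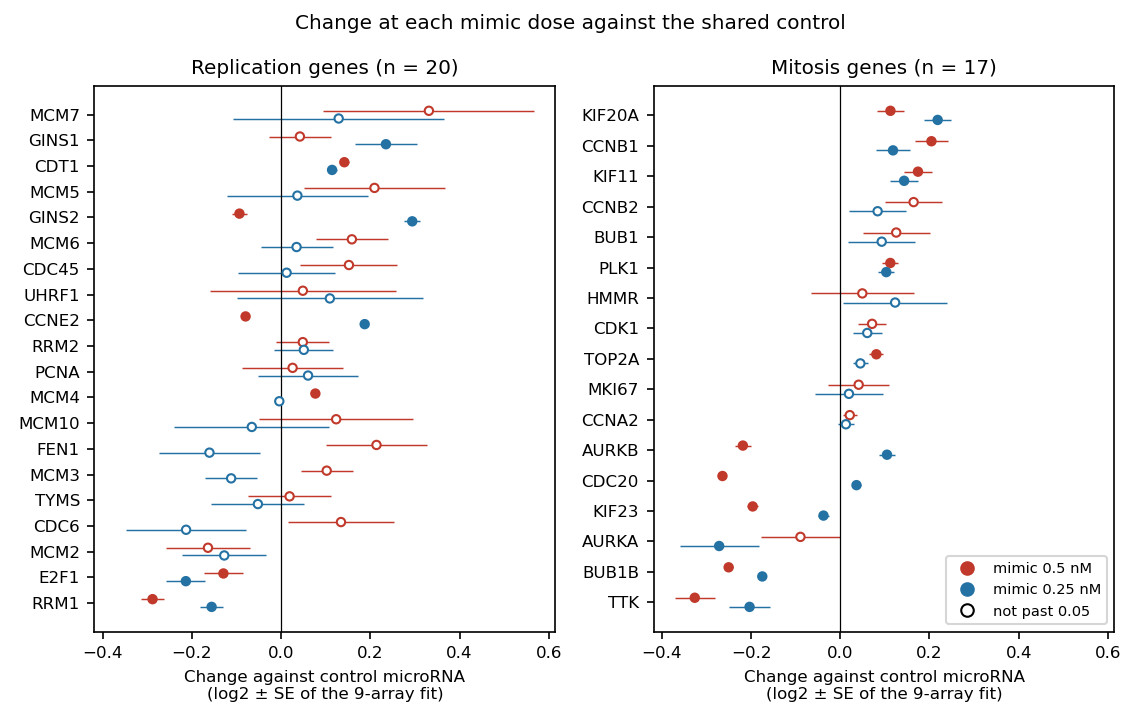
Change of each member against the control microRNA (log2 units, horizontal axis, with the SE of the limma fit) at 0.5 nM and 0.25 nM; filled points have a limma adjusted p below 0.05. Changes lie between -0.33 and 0.33 and stand on both sides of 0 in both sets. The widest bars are those of MCM7, UHRF1, MCM10 and MCM5, which were called lower in replicate 1.

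Of the replication genes, RRM1 was lower at both doses. It read 9.89, 9.93 and 9.93 in control, 9.60, 9.65 and 9.65 at 0.5 nM, and 9.72, 9.77 and 9.80 at 0.25 nM, so the 3 groups did not overlap. The changes were -0.29 ± 0.026 (SE; limma adjusted p = 4.44e-05) and -0.16 ± 0.026 (SE; limma adjusted p = 0.00140). Without the shift the second was 0.00081 and did not pass. E2F1, the transcription factor of S-phase entry, read 8.33, 8.43 and 8.48 in control, 8.29, 8.28 and 8.28 at 0.5 nM, and 8.12, 8.23 and 8.23 at 0.25 nM. All mimic arrays lay below all control arrays, with changes of -0.13 ± 0.044 (SE; limma adjusted p = 0.0347) and -0.21 ± 0.044 (SE; limma adjusted p = 0.00375), which were -0.04 and -0.06 and did not pass without the shift. CDT1 was higher at both doses, by 0.14 (limma adjusted p = 1.10e-05) and 0.11 (limma adjusted p = 3.88e-05).

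Some replication genes differed between the doses. GINS2 changed by -0.09 at 0.5 nM (limma adjusted p = 0.00239) and by 0.29 at 0.25 nM (limma adjusted p = 1.40e-05), and CCNE2 by -0.08 (limma adjusted p = 4.21e-05) and 0.19 (limma adjusted p = 3.13e-07), but without the shift their changes at 0.5 nM were -0.0037 and 0.010 and did not pass. GINS1, whose values are given above, changed by 0.04 ± 0.070 (SE; limma adjusted p = 0.633) and 0.24 ± 0.070 (SE; limma adjusted p = 0.0210), and MCM4 was higher at 0.5 nM by 0.08 (limma adjusted p = 0.000274). MCM2, a subunit of the helicase ring, read 7.97, 8.17 and 8.17 in control, 7.93, 7.95 and 7.95 at 0.5 nM, and 7.77, 8.08 and 8.08 at 0.25 nM. Its 0.5 nM arrays lay below the control arrays and its 0.25 nM arrays overlapped them, and changes of -0.16 and -0.13 did not pass (limma adjusted p = 0.172 and 0.275). MCM7 at 0.33 ± 0.24 (SE) and 0.13 ± 0.24 (SE) did not pass either (limma adjusted p = 0.265 and 0.661), nor did UHRF1, MCM10 and PCNA, which lay between -0.07 and 0.12 at both doses.

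Some calls did not hold with 1 array fewer. With each of the 9 arrays left out in turn, 5 of the 6 replication calls and 9 of the 10 mitosis calls at 0.5 nM held in all 9 fits, as did 5 of 6 and 6 of 10 at 0.25 nM. At 0.5 nM E2F1 lost its call without control replicate 2 or 3 or without any 1 of the 0.5 nM arrays (largest limma adjusted p = 0.103), and KIF20A without control replicate 2 or 3 (0.0516). At 0.25 nM GINS1 lost its call without control replicate 1 or 0.25 nM replicate 2 or 3, with changes of 0.17 to 0.29 over the 9 fits (largest limma adjusted p = 0.0687). AURKA lost it there without any 1 control or 0.25 nM array (0.0902), CCNB1 without any 1 control array or 0.25 nM replicate 1 or 3 (0.0827), KIF23 without replicate 2 or 3 of either group (0.0935), and CDC20 without control replicate 2 (0.0531).

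Replicate numbers bear on these calls, since the spread by number enters the error of the replication genes. With the replicate number as a block, 9 replication genes were higher and 4 lower at 0.5 nM, and 5 were higher and 4 lower at 0.25 nM. MCM7 then passed at 0.5 nM with an unchanged 0.33 and an SE of 0.025 (limma adjusted p = 0.000194) and at 0.25 nM with 0.13 (limma adjusted p = 0.00758). At 0.5 nM MCM3, MCM5, MCM6, MCM10, CDC6 and FEN1 were the other genes that passed as higher with the block and not without it. At 0.25 nM MCM3 at -0.11 (limma adjusted p = 0.0313) and CDC6 at -0.17 (limma adjusted p = 0.0110) passed as lower. In mitosis genes the block kept counts of 5 and 5 at 0.5 nM and gave 6 and 3 at 0.25 nM, where TOP2A gained its call and CCNB1 (limma adjusted p = 0.0526) and KIF23 (limma adjusted p = 0.0585) lost theirs. With the arrays numbered 1 left out, counts in the replication set were 9 and 5 at 0.5 nM and 6 and 5 at 0.25 nM. These counts are of members only. They were not set against the shares of all genes in the same fits, so they do not set the members apart from other genes.

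Of the mitosis genes, the checkpoint kinases TTK and BUB1B were lower at both doses. TTK read 8.43 on all 3 control arrays, 8.07, 8.18 and 8.07 at 0.5 nM, and 8.14, 8.28 and 8.28 at 0.25 nM. Every mimic array lay below control, with changes of -0.33 ± 0.045 (SE; limma adjusted p = 0.000495) and -0.20 ± 0.045 (SE; limma adjusted p = 0.00580), the latter -0.05 and not passing without the shift (limma adjusted p = 0.452). BUB1B read 8.69 on all control arrays, 8.45, 8.43 and 8.43 at 0.5 nM, and 8.52, 8.51 and 8.51 at 0.25 nM. Its groups were separate, and the changes were -0.25 ± 0.0091 (SE; limma adjusted p = 2.16e-07) and -0.17 ± 0.0091 (SE; limma adjusted p = 1.69e-06), an SE that follows from the ties. Before the shift BUB1B read 8.605 on all control arrays and 8.587 on all 0.25 nM arrays. Little of its change at 0.25 nM was thus present without the shift. KIF23, a motor of the central spindle, was lower at both, at -0.20 (limma adjusted p = 4.21e-06) and -0.04 (limma adjusted p = 0.0275), though without the shift its change at 0.25 nM was a rise of 0.12 (limma adjusted p = 2.04e-05). AURKA at -0.09 and -0.27 passed at 0.25 nM (limma adjusted p = 0.417 and 0.0299), but not without the shift (limma adjusted p = 0.317).

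Other mitosis genes were higher at both doses. CCNB1, the cyclin B that activates CDK1, read 8.91 on all control arrays, 9.18, 9.12 and 9.03 at 0.5 nM, and 9.01, 8.99 and 9.07 at 0.25 nM. All mimic arrays were above control, with changes of 0.20 ± 0.037 (SE; limma adjusted p = 0.00210) and 0.12 ± 0.037 (SE; limma adjusted p = 0.0262). KIF20A, a motor of cytokinesis, read 9.49, 9.40 and 9.40 in control, 9.59, 9.53 and 9.50 at 0.5 nM, and 9.66, 9.64 and 9.64 at 0.25 nM. It changed by 0.11 ± 0.031 (SE; limma adjusted p = 0.0146) and 0.22 ± 0.031 (SE; limma adjusted p = 0.000510), with no overlap between groups. KIF11 rose by 0.17 (limma adjusted p = 0.00183) and 0.14 (limma adjusted p = 0.00491), and PLK1, a kinase of mitotic entry and exit, by 0.11 (limma adjusted p = 0.00109) and 0.10 (limma adjusted p = 0.00168).

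TOP2A, the topoisomerase that untangles chromosomes, was higher at 0.5 nM by 0.08 (limma adjusted p = 0.00406). AURKB, the Aurora kinase of the chromosomal passenger complex, turned direction between doses, at -0.22 (limma adjusted p = 2.01e-05) and 0.10 (limma adjusted p = 0.00128). CDC20, the activator of the anaphase-promoting complex, did so as well, at -0.26 (limma adjusted p = 6.93e-07) and 0.04 (limma adjusted p = 0.0175). CDK1 at 0.07 and 0.06 (limma adjusted p = 0.0915 and 0.140) and MKI67 at 0.04 and 0.02 (limma adjusted p = 0.631 and 0.841) did not pass, nor did CCNB2, CCNA2, BUB1 and HMMR, at 0.01 to 0.16.

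When each group counts as 1 unit, so that the error comes from differences between groups, 0 of the 37 members passed for both doses against control (limma with intensity trend on 3 group means), 0 had an unadjusted p under 0.05, and over all genes 0.128% passed, with 6.56% at an unadjusted p under 0.05. The largest rise was that of MCM7, 0.23 ± 0.13 (SE; limma adjusted p = 0.817). The largest falls were those of TTK, -0.26 ± 0.15 (SE; limma adjusted p = 0.837), and RRM1, -0.22 ± 0.13 (SE; limma adjusted p = 0.838). BUB1B at -0.21 (limma adjusted p = 0.896) and KIF20A at 0.17 (limma adjusted p = 0.924), whose groups do not overlap, did not pass either. Member changes in this test ran from -0.26 to 0.23, and none was detectable with 3 groups as units. For each gene the only residual here is the difference between the doses, so a dose effect would count as error. The SE also leans on the intensity trend over all genes. It was 0.12 for KIF11, whose dose difference was 0.03, and 0.13 for AURKB, whose dose difference was -0.32.

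Between the doses, 4 replication genes were higher and 4 lower at 0.5 nM than at 0.25 nM, against 35% and 27.2% of all genes called higher and lower (limma, 9 arrays). Those higher were MCM3, MCM4, CDT1 and FEN1, at 0.03 to 0.37 (without the shift none of these passed as higher and CDT1 passed as lower, at -0.04), and those lower GINS1, GINS2, RRM1 and CCNE2, at -0.39 to -0.13. Of the mitosis genes 0 were higher (limma, adjusted) and 6 lower: AURKB at -0.32 (limma adjusted p = 2.15e-06), CDC20 at -0.30 (limma adjusted p = 6.66e-07), KIF23, TTK, KIF20A and BUB1B. All 6 of the mitosis genes with an unadjusted p under 0.05 were these. With 1 array left out, CDT1, GINS1 and TTK lost the call between doses in 7 of 9 fits each (largest limma adjusted p = 0.124, 0.135 and 0.143): CDT1 and GINS1 kept it without control replicate 1 or 0.25 nM replicate 1, and TTK without 0.25 nM replicate 1 or 0.5 nM replicate 2. FEN1 lost it without any 1 of the 0.25 nM arrays or 0.5 nM replicate 2 or 3, and KIF20A without 0.25 nM replicate 1 or 0.5 nM replicate 2 or 3 (largest limma adjusted p = 0.0753 and 0.0614), while the other 9 members kept it in all 9. With the replicate block 8 replication genes were higher and 4 lower, MCM6, MCM7, MCM10, CDC6 and TYMS gaining a call and CDT1 losing it. These counts were not set against all genes in that fit.

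The other genes of both processes also moved in both directions against control. Of 18 other replication genes 4 were higher and 6 lower at 0.5 nM, and 2 higher and 6 lower at 0.25 nM, with DSCC1, which helps to load the clamp and cohesion factors, at -0.52 (limma adjusted p = 5.39e-06) and -0.35 (limma adjusted p = 4.92e-05). Of 55 other mitosis genes 16 were higher and 12 lower at 0.5 nM and 20 higher and 11 lower at 0.25 nM, with CENPN, a centromere protein, at 0.28 (limma adjusted p = 5.09e-05) and 0.71 (limma adjusted p = 2.38e-07). Of 28 regulators 11 were higher and 7 lower at 0.5 nM and 6 higher and 8 lower at 0.25 nM, with FBXO5, an inhibitor of the anaphase-promoting complex, at 0.57 and 0.35 (limma adjusted p = 1.20e-06 and 2.19e-05) and E2F8, an E2F repressor, at -0.56 and -0.42 (limma adjusted p = 0.000389 and 0.00177). FOXM1 lay at 0.03 (limma adjusted p = 0.0430) and 0.12 (limma adjusted p = 6.81e-05). CCND1 at -0.15 and -0.04 and MYBL2 at -0.05 and 0.02 did not pass (limma adjusted p = 0.177, 0.736, 0.652 and 0.841). The markers of other cell types differed too, CD68 at -0.37 and -0.58 (limma adjusted p = 0.000765 and 5.59e-05), and melanocyte markers in both directions, 3 higher and 4 lower of 13 at 0.5 nM. Their part in the members' changes was not tested.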

How the data were processed

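The deposited values are log2 intensities made by the authors with RMA (background correction, quantile normalization, probe summary); oligo and affy are the packages listed in the submitters' processing notes, without versions, and no build is given there. The table holds 9 arrays and 44629 rows, of which 15835 have 1 symbol; the brightest row of each gene was kept (14812 genes). In 0.25 nM replicate 3 no value has 0 as its first decimal, and its values of fewer than 10 digits were left out. Arrays were shifted to 1 median. Tests used limma 3.58.1 in R 4.3.3, two-sided, Benjamini-Hochberg over all genes, threshold 0.05. They were also run on simulated data with independent noise on each array and no ties within groups. That run therefore does not show the error rates in these data. P-values measure the spread between these arrays, whose number limits precision. Same-numbered arrays deviated together from their group means over genes in all 9 pairs (correlation 0.136 to 0.589), so the replicate number was also used as a block. Replicates 2 and 3 of different groups correlated too, at 0.165 to 0.359. The members and gene lists were chosen with earlier results of these data known. Array values are printed for the 5 members per set with the largest mean change of both doses, the 3 with the largest replicate 1 difference, and PCNA, E2F1, CDK1 and MKI67; of the other lists at most 2 rises and 2 falls per comparison, with FOXM1, MYBL2 and CCND1. CDKN1A was not analysed here.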

Additional observations from a re-analysis of the deposited data

Results flagged for a closer look

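Between the doses of the same mimic, 8 of 20 replication genes and 6 of 17 mitosis genes differed by limma. Over all genes 35% were called higher and 27.2% lower. Of the 3413 genes at a mean level of at least 8, where all members lie, 863 were higher and 699 lower. The brighter genes were thus also called less often than all genes, as were the members, and these shares were not tested. Among members whose array values are given above, the difference of 0.5 nM from 0.25 nM was -0.13 for RRM1, -0.19 for GINS1, -0.12 for TTK, -0.075 for BUB1B and -0.11 for KIF20A. The calls of GINS1, TTK and KIF20A between doses were lost in 7, 7 and 3 of the 9 fits with 1 array left out. For RRM1, TTK and BUB1B the lower value is that of the higher dose, which lies further from control, and for GINS1 and KIF20A it is the lower dose that lies further from control.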

How the results depend on the processing

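Arrays of 1 group tie, 3 per group limit the precision, and the cause of each move below was not tested. Counts below are of members and were not set here against all genes in the same runs. Without the shift, calls against control were 4 higher and 1 lower (replication, median 0.15) and 9 higher (mitosis, median 0.14) at 0.5 nM, and 0 lower (replication, median 0.18) and 12 higher and 1 lower (mitosis, median 0.22) at 0.25 nM. Between doses 0 replication genes were then higher (median 0.012), the mitosis median was -0.056, 5 replication genes were lower in replicate 1, and RRM1 at 0.25 nM turned from -0.16 to 0.00081. With all values kept as deposited, 1 replication gene was higher at 0.5 nM and 2 between doses (median 0.020). Quantile normalization gave 4 higher at 0.5 nM (median 0.080), a replication median of 0.067 and 2 lower mitosis genes (median 0.087) at 0.25 nM, a replicate 1 median of -0.14 in replication genes, and 1 mitosis gene, HMMR, higher in replicate 1 (median 0.040). With the replicate number as a block, replication calls were 9 higher at 0.5 nM, 4 lower at 0.25 nM and 8 higher between doses, with 1 mitosis gene higher there. Over the 37 members and all 3 comparisons the block added 17 calls and ended 3. Without arrays numbered 1, an alternative chosen after seeing the data, these counts were 9, 5, 10 (median 0.037) and 1. Without the 0.25 nM group 0 replication genes were lower in replicate 1, and on genes with all 9 values, also chosen after seeing the data, the mitosis median was -0.0021. Leaving out 1 array gave 2 to 4 higher replication genes at 0.5 nM (median 0.0040 to 0.12), replication medians of -0.066 to 0.087 at 0.25 nM, 2 to 4 lower mitosis genes there (median 0.036 to 0.069), 2 to 5 higher replication genes between doses (median 0.026 to 0.095), and 3 to 8 replication genes lower in replicate 1. In the test with groups as units 0 members passed in each alternative run.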
